A study of Rattus norvegicus with 16 samples.

Results

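The immediate early genes followed here were Fos, Fosb, Junb, Egr1, Nr4a1, Ier2, Dusp1 and Arc, measured in rat L4/L5 dorsal root ganglia (DRG) after spared nerve injury (SNI). Every probe set annotated to one of these 8 genes and to no other was taken, which gave 10 probe sets of 31042. Fos and Dusp1 had 2 probe sets each and the other genes 1. In the GRCr8 build of the rat genome, Fos lies on chr6:110852188-110855054. All values are log2 GC-RMA values, in which a difference of 1 is a doubling of signal.

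Sprague-Dawley rats had SNI, in which the common peroneal and tibial branches of the sciatic nerve are ligated and cut and the sural branch is spared, or a sham operation in which the nerve was only exposed. Ganglia were collected 7 days later. The 16 arrays comprised 3 of adult SNI ipsilateral, 3 of adult SNI contralateral and 3 of adult sham ganglia, and 2 of young SNI ipsilateral, 2 of young SNI contralateral and 3 of young sham ganglia. Adult rats were 2 months old and male, and young rats were 10 days old at surgery. All animals were operated under halothane, and the methods describe a retrograde tracer placed in the cut nerve ends. Each array held ganglia pooled from 3 adult or 4 young rats, so the spread given is between pools and not between animals. SNI injures only part of the axons of these ganglia, and the pools mix injured and intact neurons with glia, vessels and other cells. In such bulk RNA, fewer cells of a type and less RNA per cell cannot be told apart.

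Immediate early genes are transcribed within minutes of a stimulus without the need for new protein, and their transcripts are usually short lived. Serum response factor at CArG boxes and CREB at cyclic AMP response elements drive many of them. Fos, Fosb and Junb encode subunits of the AP-1 transcription factor, Egr1 a zinc finger transcription factor and Nr4a1 an orphan nuclear receptor. Ier2 encodes a small nuclear protein, Dusp1 a phosphatase that switches off MAP kinases, and Arc a protein of synapses that acts on AMPA receptor trafficking. Neuronal Fos protein is widely used as a marker of recent activity in pain research, mostly in the dorsal horn.

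Promoters from RefSeq (build GRCr8), each from 250 bases before to 50 after the start site, were listed for 6 of the 8 genes. The 4 printed below belong to Egr1 and Ier2, the members that varied most closely with Fos across arrays, and to Dusp1 and Junb, which with Fos were higher in adult than in young ganglia. Capitals mark the motifs searched on both strands: the CArG box (CC, 6 bases of A or T, GG), the full cyclic AMP response element TGACGTCA and the TATA motif TATAAA. The Egr1 promoter lies on chr18:26736828-26737127, that of Ier2 on chr19:40399123-40399422, that of Dusp1 on chr10:17184603-17184902 and that of Junb on chr19:40080876-40081175, all on the plus strand.
Egr1: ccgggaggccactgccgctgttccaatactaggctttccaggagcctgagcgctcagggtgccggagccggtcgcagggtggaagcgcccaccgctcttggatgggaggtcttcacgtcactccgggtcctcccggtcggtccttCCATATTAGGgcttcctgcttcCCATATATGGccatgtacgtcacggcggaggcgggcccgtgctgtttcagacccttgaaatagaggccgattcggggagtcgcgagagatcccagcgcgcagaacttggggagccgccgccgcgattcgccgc
Ier2: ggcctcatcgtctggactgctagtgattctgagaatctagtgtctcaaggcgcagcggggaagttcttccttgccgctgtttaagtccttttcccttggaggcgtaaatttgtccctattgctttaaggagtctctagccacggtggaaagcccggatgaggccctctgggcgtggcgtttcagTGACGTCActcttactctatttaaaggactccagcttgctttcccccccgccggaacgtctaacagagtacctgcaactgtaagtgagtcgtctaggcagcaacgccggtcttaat
Dusp1: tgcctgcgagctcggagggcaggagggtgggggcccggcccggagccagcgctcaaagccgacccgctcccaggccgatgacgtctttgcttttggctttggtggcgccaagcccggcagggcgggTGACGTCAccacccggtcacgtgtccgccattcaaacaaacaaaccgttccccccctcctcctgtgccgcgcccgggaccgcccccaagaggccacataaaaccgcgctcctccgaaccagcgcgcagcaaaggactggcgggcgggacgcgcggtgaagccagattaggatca
Junb: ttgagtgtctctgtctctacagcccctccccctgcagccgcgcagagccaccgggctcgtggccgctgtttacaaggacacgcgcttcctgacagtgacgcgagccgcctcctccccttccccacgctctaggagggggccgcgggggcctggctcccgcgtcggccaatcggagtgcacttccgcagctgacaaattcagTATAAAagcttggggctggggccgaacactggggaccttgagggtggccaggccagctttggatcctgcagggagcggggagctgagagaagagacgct

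The Egr1 window held 2 CArG boxes, whose first bases lay at -105 and -83 from the start site. TGACGTCA was found at -66 in Ier2 and at -124 in Dusp1, and TATAAA at -49 in Junb. The window of Fosb held TATAAA on the reverse strand at -180, and that of Nr4a1 held none of the 3. Over all 33469 rat promoters of this length, 1.64% held a CArG box, 1.83% TGACGTCA and 14.2% TATAAA. These are matches of letters and not measured binding sites.

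Some arrays stood apart in the genes of other tissues. Young SNI replicate 2 averaged 10.89 over 9 central nervous tissue genes, against 2.52 to 3.30 in the other 15 arrays, and the mean of 11 sensory neuron genes was 9.99 there against 11.13 to 11.81 elsewhere. The mean of 8 skeletal muscle genes ran between 6.00 (adult sham replicate 2) and 13.42 (young contralateral replicate 1), and it was 12.79 in adult sham replicate 3. The sensory neuron marker Prdm12 and the macrophage markers Cd163 and Itgam stayed below a log2 of 4 in every array. So did Olig2 of the central nervous tissue list, young SNI replicate 2 included. Xist, the RNA of the inactive X chromosome, by its brightest probe set was at most 2.57 in the 9 adult arrays, while 5 of the 7 young arrays had 9.77 to 12.05. Most young pools thus included females. The other 2, young contralateral replicate 1 and young sham replicate 2, had 2.35 and 2.36, and their values were 7.16 and 8.13 for Fos, 5.76 and 6.40 for Junb and 8.13 and 8.22 for Dusp1. The part of sex in the contrasts between ages was not tested. Atf3, a transcription factor of axotomized neurons, had 11.60, 11.81 and 11.72 in the adult SNI arrays against at most 7.27 in the adult contralateral and sham arrays. In young SNI arrays Atf3 had 7.77 and 10.17, against 9.06 and 4.87 in young contralateral and 9.49, 11.00 and 7.75 in young sham arrays, so it did not separate the young groups, and the young comparisons hold for the arrays as labelled.

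Averaged over the 16 arrays, 6 of the 8 genes had a probe set well above background. These were Nr4a1 (9.80), Fos (8.56), Dusp1 (8.46), Egr1 (8.35), Junb (6.56) and Ier2 (6.56), all above 4 in every array, although values of different probe sets do not rank the genes. Fosb lay between 2.38 and 3.20 and Arc between 3.21 and 4.02, and Arc passed 4 in 1 array (young SNI replicate 2). The other Fos probe set, of the 2 on the array, stayed between 2.28 and 2.77. At this signal no change of Fosb or Arc could be read from the arrays.

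Fos, by its brighter probe set, had values of 9.41, 9.78 and 10.03 in adult SNI, 9.01, 9.38 and 9.05 in adult contralateral and 7.68, 8.42 and 10.56 in adult sham arrays. In the young, it had 7.22 and 9.72 in SNI, 7.16 and 6.84 in contralateral and 7.27, 8.13 and 7.38 in sham arrays. The adult SNI arrays were all above the contralateral ones but lay inside the range of adult sham, which held both the lowest and the highest adult value. The 2 young SNI arrays lay on either side of the young sham arrays. The highest young value came from the array with central nervous tissue transcripts, and whether these play a part in it was not tested.

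Junb, a partner of Fos in AP-1, had 6.86, 7.58 and 7.32 in adult SNI, 6.47, 6.75 and 6.51 in adult contralateral and 7.63, 6.46 and 6.46 in adult sham arrays. The young arrays had 6.45 and 6.11 (SNI), 5.76 and 6.09 (contralateral) and 6.06, 6.40 and 6.12 (sham). Every adult array was above every young array, although only narrowly (6.46 against 6.45). Adult sham replicate 1 had the highest Junb but the lowest adult Fos.

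Egr1 had 8.54, 8.65 and 8.85 in adult SNI, 8.05, 8.62 and 8.47 in adult contralateral and 7.35, 7.91 and 9.28 in adult sham arrays. Young arrays had 8.56 and 9.31 in SNI, 7.63 and 8.07 in contralateral and 8.46, 8.16 and 7.67 in sham. The adult groups overlapped, and the young SNI value of 9.31 came from the array with central nervous tissue transcripts. Nr4a1 varied least of the 6 (SD 0.34 over the 16 arrays). It had 10.02, 9.52 and 9.83 in adult SNI, 9.78, 9.40 and 9.76 in adult contralateral and 10.15, 9.32 and 9.77 in adult sham arrays, and these groups overlapped. In the young, Nr4a1 had 9.66 and 9.13 in SNI, 10.04 and 9.79 in contralateral and 10.23, 10.39 and 10.03 in sham arrays. The 9.13 came from the array with central nervous tissue transcripts.

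Ier2 had 6.53, 7.52 and 7.58 in adult SNI, 5.93, 7.05 and 5.90 in adult contralateral and 7.02, 6.30 and 7.94 in adult sham arrays. The young values were 6.48 and 7.02 (SNI), 5.50 and 5.72 (contralateral) and 6.62, 6.57 and 5.25 (sham). The adult groups overlapped, and the young SNI value of 7.02 came from the array with central nervous tissue transcripts. Dusp1, again by its brighter probe set, had 9.20, 9.53 and 8.68 in adult SNI, 8.97, 8.67 and 8.38 in adult contralateral and 8.80, 8.19 and 9.04 in adult sham arrays. In the young it had 7.87 and 8.30 (SNI), 8.13 and 7.71 (contralateral) and 8.05, 8.22 and 7.56 (sham). Only 1 adult array, adult sham replicate 2, fell within the young range. The second Dusp1 probe set was dimmer, 3.50 to 5.51.

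**Figure D1:**
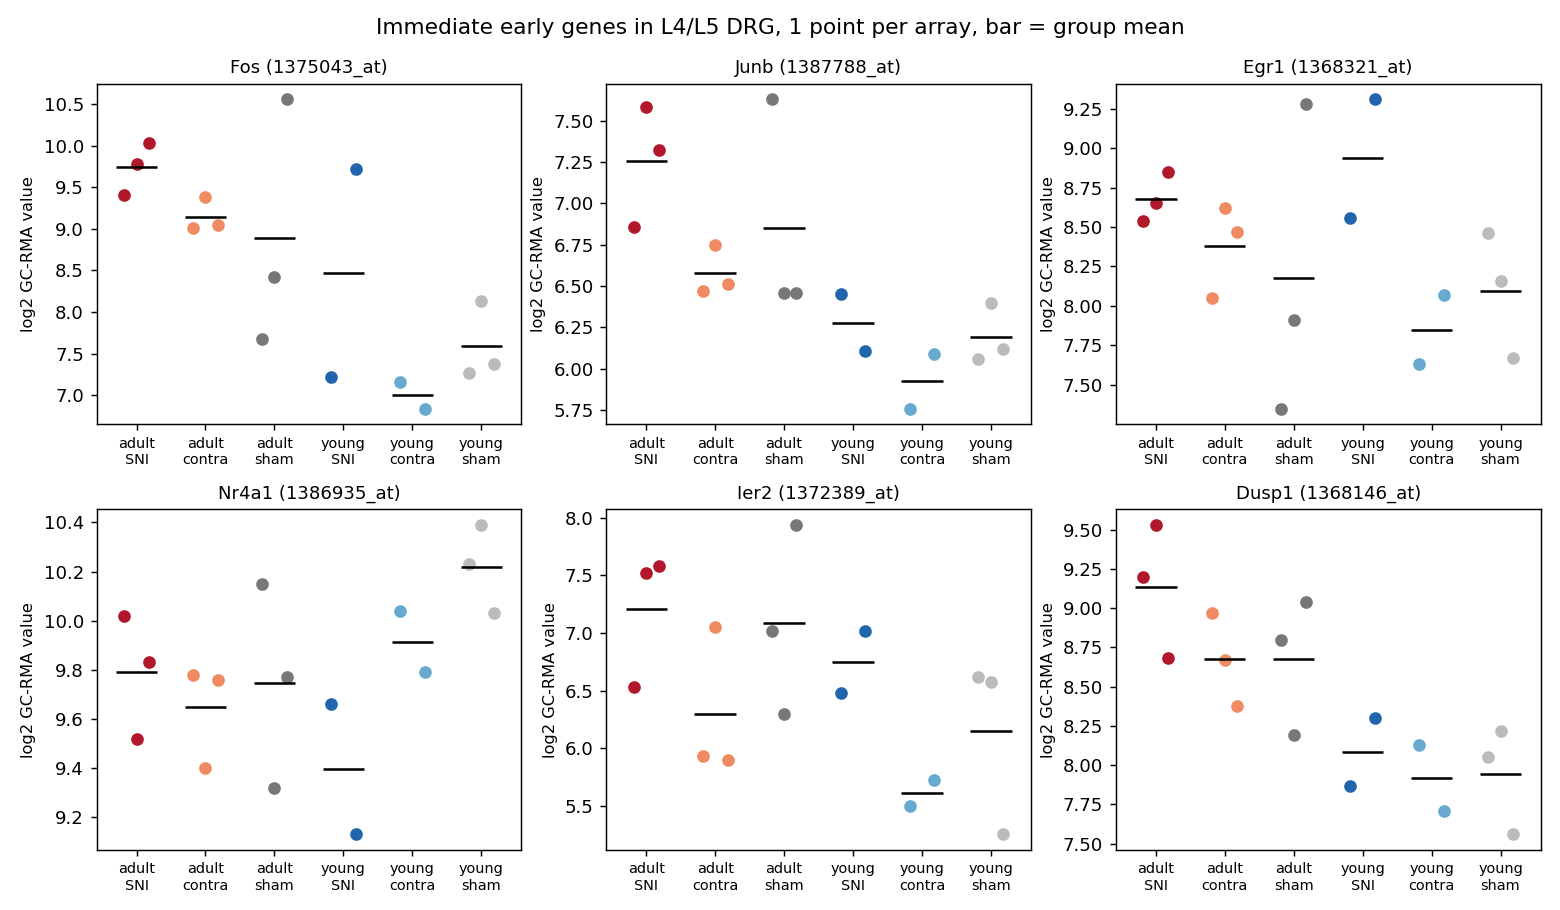
Log2 GC-RMA values (vertical axes, scaled per panel) of the 6 immediate early genes measured above background, by group (horizontal axes, SNI left of contralateral and sham, adult left of young). Each point is 1 array and each bar a group mean; adult Fos spreads between 7.68 and 10.56 within the sham group alone, and Junb and Dusp1 sit higher in adult than in young arrays.

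At 7 days after injury, none of the 8 genes passed the test against either control at either age. In adult ganglia, 0 of 10 member probe sets were called for SNI against sham, beside 0.480% of all probe sets, and 0 of 10 against the contralateral side, beside 1.03%. In limma with Benjamini-Hochberg adjustment over all probe sets, the smallest adjusted p among members was 0.801 against sham and 0.456 against contralateral, and at an unadjusted 0.05 there were 0 and 1 members. That 1 was Junb, which averaged 7.25 ± 0.36 in adult SNI and 6.58 ± 0.15 in contralateral ganglia (SD, n = 3 each), a difference of 0.68 (95% interval 0.04 to 1.31). Fos averaged 9.74 ± 0.31 in adult SNI, 9.15 ± 0.20 in contralateral and 8.89 ± 1.50 in sham arrays. Its difference from sham was 0.85 (-0.69 to 2.40) and from contralateral 0.59 (-0.95 to 2.14), intervals that reach from a decrease to more than a doubling. The difference from sham was 0.25 without adult sham replicate 1, 1.69 without adult sham replicate 3 and 0.32 with array weights. Dusp1 differed by 0.46 from sham (-0.16 to 1.08) and Egr1 by 0.50 (-0.41 to 1.41). Ier2 had 0.12 against sham (-0.99 to 1.23) and 0.92 against contralateral (-0.19 to 2.03). Nr4a1 had 0.04 (-0.44 to 0.53) against sham, the narrowest of these intervals. The adult SNI and contralateral arrays share replicate numbers, which were taken as pairs because same-numbered arrays deviated alike. No label states that same-numbered arrays come from the same rats. With the number as a block, 169 rather than 321 probe sets passed in that comparison, and members again 0. This block also joined the same-numbered sham arrays, which come from other rats. With the pairs as a random block, an alternative chosen after seeing the data whose correlation (0.606) was estimated from 3 pairs, 2698 probe sets passed there and Junb was 1 of them (adjusted p = 0.0421 in limma), so its call depends on how the pairs are handled. The adult SNI arrays were all above adult sham for 0 members, beside 4.17% of all probe sets, and above contralateral for 2 (Fos and Junb), beside 8.24%. The macrophage list was also higher in adult SNI, 6.84 to 7.82 on average, against 5.13 to 5.41 in contralateral and 5.66 to 6.38 in sham arrays.

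In young ganglia, 0 of 10 members were called for SNI against sham (0.0161% of all probe sets) and 0 of 10 against contralateral (0.00966%). The smallest p belonged to Nr4a1, which averaged 9.40 ± 0.37 in SNI (SD, n = 2) and 10.22 ± 0.18 in sham (SD, n = 3), a difference of -0.82 (-1.36 to -0.28) with an unadjusted p of 0.00641 and an adjusted p of 0.837 in limma. Without young SNI replicate 1, Nr4a1 differed by -1.09 and passed at an adjusted p of 0.0400, but the lone remaining array was the one with central nervous tissue transcripts, and its spread was taken to be that of the other groups. Against the contralateral side, Nr4a1 differed by -0.52 (-1.11 to 0.07). Fos had 0.88 against sham (-0.85 to 2.61) and 1.47 against contralateral (-0.43 to 3.37). Without young SNI replicate 2, the difference of Fos from sham became -0.37. Egr1 had 0.84 (-0.18 to 1.86) against sham and 1.08 (-0.03 to 2.20) against contralateral, and Ier2 had 0.60 (-0.64 to 1.84) against sham and 1.14 (-0.22 to 2.50) against contralateral. Junb, and Dusp1 by its brighter probe set, differed by at most 0.36 against either young control. The dimmer Dusp1 probe set differed by -0.27 against sham and by -0.64 against contralateral.

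The contralateral side was compared with sham as well. At each age 0 of 10 members were called, beside 0% of all probe sets, of which 625 in adult and 697 in young ganglia had an unadjusted p under 0.05, and no member did. The response to injury was also compared between ages as the adult SNI difference minus the young one. There 0 of 10 members passed against sham (0.0773% of all probe sets) and 0 of 10 against contralateral (0.0193%). Nr4a1 came nearest, at 0.86 (0.14 to 1.59) against sham, with an adjusted p of 0.673 in limma. For Fos this difference between ages was -0.02 (-2.34 to 2.30), so the arrays do not resolve whether its response differed.

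**Figure D2:**
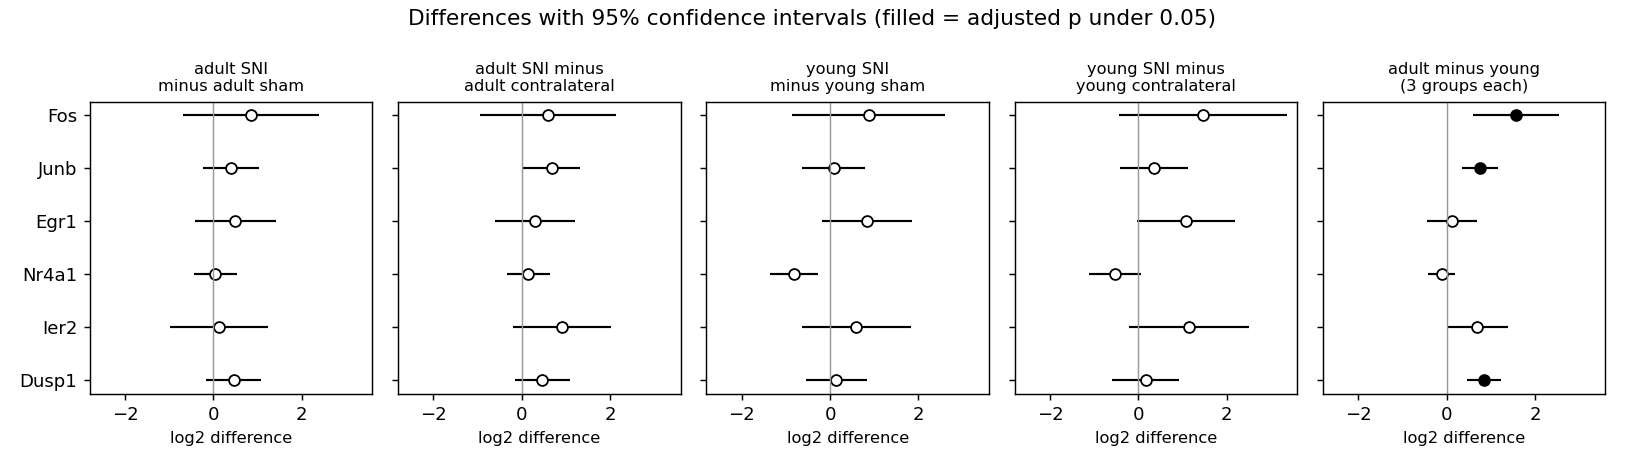
Log2 differences (horizontal axes) of the 6 genes (rows) in 5 comparisons, with 95% confidence intervals from limma; filled points have an adjusted p under 0.05. The filled points are Fos (1.57), Junb (0.76) and Dusp1 (0.85) in adult minus young; no SNI comparison has one.

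Adult and young ganglia were compared over the 3 groups of each age. There 3 of 10 member probe sets passed, all higher in adult ganglia, beside 10.6% of all probe sets in either direction and 5.55% higher in adult. Fos averaged 9.26 ± 0.86 in adult (SD, n = 9) and 7.67 ± 0.98 in young arrays (SD, n = 7). The difference of the group means was 1.57 (SE 0.44, adjusted p = 0.0433 in limma), or 2.97-fold (95% interval 1.52 to 5.80). Junb differed by 0.76 (SE 0.18, adjusted p = 0.0219), 1.69-fold, and Dusp1 by 0.85 (SE 0.18, adjusted p = 0.0126), 1.80-fold. Ier2 differed by 0.69 (0.00 to 1.39) but missed the threshold (adjusted p = 0.206), as did the second Dusp1 probe set by 0.41 (adjusted p = 0.235). Egr1 and Nr4a1, with 0.12 (-0.45 to 0.69) and -0.11 (-0.42 to 0.19), did not differ beyond their error. Every adult array was above every young one for 1 member, Junb, beside 1.39% of all probe sets.

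The 3 calls were not equally firm. Dusp1 passed without any single array (adjusted p at most 0.0382). Junb lost its call without young contralateral replicate 1 (adjusted p = 0.0743) and without young SNI replicate 2 (0.0599). Fos kept its call only without adult sham replicate 1 or 3, young sham replicate 2 or young SNI replicate 2, and lost it without any one of the other 12 arrays (adjusted p 0.0540 to 0.0996), with differences between 1.15 and 1.99 throughout. With the adult pairs as a random block, Dusp1 (adjusted p = 0.0262) and Junb (0.0411) passed and Fos did not (0.0777), and 2130 rather than 3288 of all probe sets passed. In single groups, the adult minus young difference of Fos was 1.27 in SNI, 2.15 in contralateral and 1.29 in sham arrays. That of Junb was 0.97 in SNI, 0.65 in contralateral and 0.66 in sham arrays, and that of Dusp1 1.05 in SNI, 0.75 in contralateral and 0.73 in sham arrays. No member passed in any single group, beside 2.64% of all probe sets in SNI, 0.177% in contralateral and 0.622% in sham arrays. Junb passed between adult and young SNI arrays without adult sham replicate 1 (adjusted p = 0.0377), and the dimmer Dusp1 probe set did so without young SNI replicate 1, which leaves only the array with central nervous tissue transcripts in that group.

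Some RNA measures also differed between ages, although their ranges overlapped. The 3' minus 5' signal of hexokinase, larger where RNA is more degraded or shorter in labelling, was 1.82 to 2.72 in adult arrays and 1.00 to 1.24 in 5 of the 7 young arrays. The other 2 young arrays, young SNI replicate 2 (2.33) and young sham replicate 2 (2.31), were those with the highest young Fos (9.72 and 8.13) and Dusp1 (8.30 and 8.22). Junb did not follow this, with 6.11 and 6.40 in these arrays. The highest young Junb, 6.45, was in young SNI replicate 1, where hexokinase had 1.24. The same measure of beta-actin was 2.64 to 3.31 in adult and 2.21 to 2.84 in young arrays, and that of GAPDH 0.07 to 0.22 in adult and -0.05 to 0.27 in young arrays. Myelinating Schwann cell genes averaged 11.44 to 12.65 in adult and 12.35 to 12.90 in young arrays, and fibroblast genes 11.27 to 12.97 in adult and 12.48 to 13.16 in young arrays. Their part in the age differences was not tested.

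Within groups, arrays high in Fos were high in Egr1. After each group mean was removed, Pearson's r of Fos with Egr1 over the 16 arrays was 0.82 (permutation p = 9e-05, adjusted over the 7 other members 0.00063) and Spearman's rho 0.68 (adjusted permutation p = 0.0340). It was 0.98 in the 9 adult and 0.55 in the 7 young arrays. The 2 arrays farthest from the median of Fos were adult sham replicate 3 (1.67 above its group mean) and young SNI replicate 2 (1.25 above). Without them r was 0.65, but on group means that still included them. Without adult sham replicate 3 alone, with group means taken anew, r was 0.60 and no longer passed (adjusted permutation p = 0.0872). The call thus rests on that array. The 0.65 and the 0.60 are not on the same footing and cannot be ranked. Ier2 followed, with r = 0.57 (adjusted permutation p = 0.0713) and rho = 0.62 (adjusted permutation p = 0.0436), and r = 0.34 without adult sham replicate 3. Its r passed without adult sham replicate 1 (0.64, adjusted permutation p = 0.0349), adult sham replicate 2 (0.55, 0.0482) or young sham replicate 1 (0.64, 0.0337). The r of Fos with Dusp1 was 0.40, with Nr4a1 -0.35 and with Junb -0.44, none of which passed over the 16 arrays. Without adult sham replicate 2, the negative r with Junb (-0.58) and Nr4a1 (-0.58) passed (adjusted permutation p = 0.0482 each). The r with Arc (0.03) and Fosb (-0.36) set Fos against signal near background. Removing group means ties the values of a group together, so the 16 points are fewer than 16 independent ones. Among the 15 pairs of the 6 genes above background, 10 correlations were positive, with a median of 0.22 and a range of -0.45 to 0.82.

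**Figure D3:**
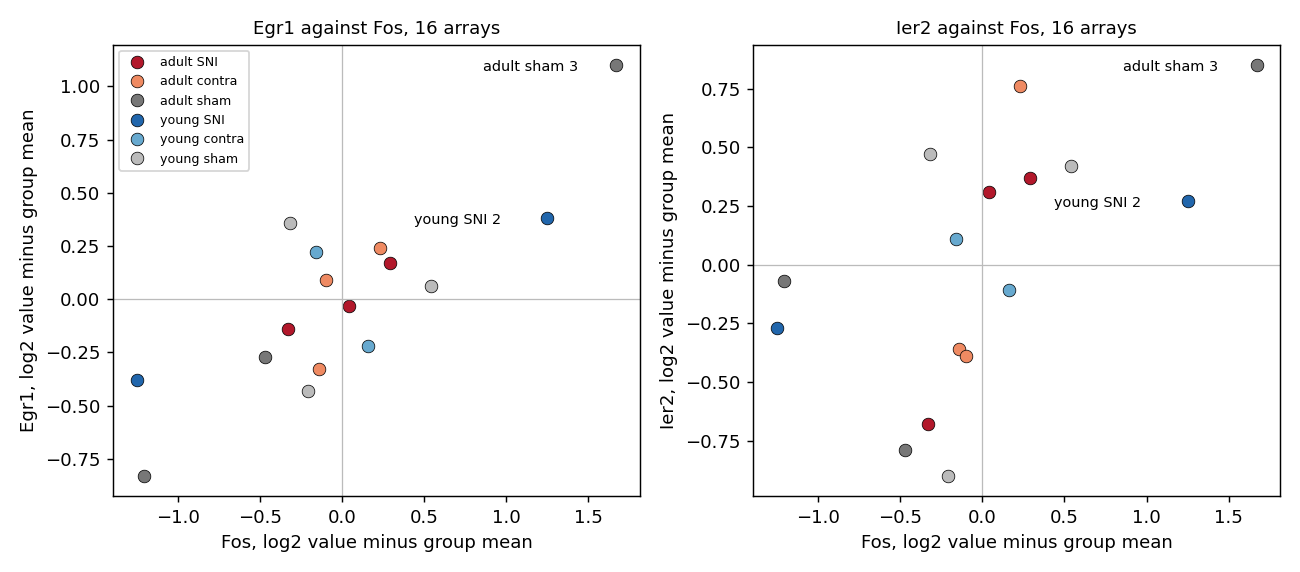
Egr1 and Ier2 (vertical axes) against Fos (horizontal axes), each as the log2 value minus the mean of its group; points are the 16 arrays, coloured by group. Adult sham replicate 3, at 1.67 for Fos, is at the top right of both panels, and r is 0.82 for Egr1 and 0.57 for Ier2.

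The adult sham array that was highest in Fos (10.56), Egr1 (9.28) and Ier2 (7.94) had the most skeletal muscle signal of the adult arrays (12.79, against 6.00 in adult sham replicate 2) and the highest endothelial mean of all arrays (8.02, against 7.14 to 7.80 in the others). It was also above adult sham replicates 1 and 2 in Schwann cell genes (12.59 against 11.65 and 11.50), fibroblast genes (12.93 against 11.85 and 11.57) and blood genes (10.76 against 9.91 and 8.20). Its sensory neuron mean (11.55) lay between theirs (11.65 and 11.53). Young contralateral replicate 1 had still more muscle signal (13.42), with 7.16 for Fos and 7.63 for Egr1. The part of these tissues in the values was not tested.

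The 10 further genes named here were nearest to the mean of the members after group means were removed, out of 13743 candidates with a mean above 4. These comprised Cmtm7 (r = 0.92), Stxbp3, Srsf9, Baiap2, Snx18, Slc29a3, Tspan3, Litaf, Gab1 and Ramp1 (0.89). Of these, Gab1, an adaptor of growth factor receptors, was closest to Fos itself (r = 0.91). These r values come from choosing the highest of many over 16 arrays and describe these arrays only.

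A few other immediate early genes passed in adult SNI, most of them against the contralateral side alone. The lists of related genes, here and below, were chosen with earlier results of these data known. Their counts beside the share of all probe sets thus describe these arrays and are not a test. Of 21 measured transcription factors of this class, 1 passed for adult SNI against sham and 3 against contralateral (0.480% and 1.03% of all probe sets), all higher, with median differences of 0.17 and 0.33 beside -0.02 and -0.04 over all probe sets. Crem, which encodes cyclic AMP responsive modulators including the repressor ICER, had 10.54, 10.29 and 10.40 in adult SNI, 9.36, 9.51 and 9.20 in contralateral and 9.54, 9.32 and 9.58 in sham arrays, with no overlap. It was higher by 0.93 against sham (SE 0.15, adjusted p = 0.0238) and by 1.05 against contralateral (SE 0.15, adjusted p = 0.00984). Against sham the call was lost with quantile normalization (adjusted p = 0.0668) and without adult SNI replicate 2 or 3 or adult sham replicate 1 or 2 (adjusted p up to 0.107), and against contralateral without contralateral replicate 1 or 3 (up to 0.0561). Atf3 was higher by 5.41 (adjusted p = 0.0374) and Klf6, a zinc finger factor, by 0.86 (adjusted p = 0.0405) against contralateral. Against sham, Atf3 differed by 4.94 (adjusted p = 0.0868) and Klf6 by 0.81 (adjusted p = 0.0827). Among 23 measured feedback regulators and effectors, 0 passed against sham and 2 against contralateral, beside the same 0.480% and 1.03%. They were Rgs2, a regulator of G protein signalling (1.35, adjusted p = 0.0242), and Dusp6, a phosphatase of ERK (0.64, adjusted p = 0.0276). With the replicate number as a block, same-numbered sham arrays of other rats included, Crem lost its call against sham (adjusted p = 0.0665). Against contralateral Crem passed (0.0379), while Klf6 (0.0586), Rgs2 (0.0818), Dusp6 (0.103) and Atf3 (0.117) did not. With the random block, these 5 genes passed there (adjusted p at most 0.000675), beside 2698 of all probe sets. In the fit without a block, Klf6, Rgs2, Dusp6 and Atf3 also lost their calls without any one of several arrays, 5 for Rgs2 and Dusp6, 9 for Atf3 and 10 for Klf6, with adjusted p up to 0.168. No gene of the 2 lists passed in the young against either control, and no difference in response between ages passed.

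Between ages, 3 of 21 transcription factors, 3 of 23 feedback regulators and effectors and 2 of 16 measured upstream kinases and factors passed, in both directions, beside 10.6% of all probe sets. Among the transcription factors, Crem was higher in adult ganglia (0.50, adjusted p = 0.00783), while Nr4a2, a relative of Nr4a1, was lower (-0.74, adjusted p = 0.0130), as was Egr2 (-1.40, adjusted p = 0.0145), which is also a factor of myelinating Schwann cells. Egr2 spanned 8.80 to 10.42 in adult and 10.43 to 11.94 in young arrays, and lost its call without young contralateral replicate 1 (adjusted p = 0.0548). Among feedback regulators and effectors, Sgk1, a stress and hormone regulated kinase, was lower in adult (-1.20, adjusted p = 0.0026), as was Dusp6 (-0.35, adjusted p = 0.0122). Rgs2 was higher (0.56, adjusted p = 0.0361), but lost its call without any one of 8 arrays (adjusted p up to 0.0905) and with the random block (0.0596). Of the upstream genes, Camk2b was lower in adult (-0.79, adjusted p = 0.00824) and Crtc1, a CREB coactivator, was higher (0.47, adjusted p = 0.0413). Crtc1 lost its call without any one of 12 arrays (adjusted p up to 0.115) and with the random block (0.0767).

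Of 9 measured genes on a list of heat shock and other stress genes, most of them chaperones, 6 were higher in adult ganglia and 0 lower, beside 5.55% of all probe sets higher and 10.6% in either direction, with a median difference of 0.65 beside 0.02 over all probe sets. Hspa1a, the inducible Hsp70, had 8.12 to 8.94 in adult arrays (median 8.44) and 6.33 to 7.61 in young arrays (median 7.24), with no overlap, a difference of 1.31 (SE 0.14, adjusted p = 0.000569). Hmox1, the inducible heme oxygenase, had 6.02 to 7.99 in adult (median 6.70) and 4.93 to 5.75 in young arrays (median 5.23), a difference of 1.48 (SE 0.22, adjusted p = 0.0026). Hsph1 (0.83) and Dnaja1 (0.41) also passed and, like Hspa1a and Hmox1, did so without any single array. Hspb1 (0.76) and Bag3 (0.65) lost their calls without any one of 10 and 14 arrays (adjusted p up to 0.109) and with the random block (0.0821 and 0.0800). After adult injury, 0 of the 9 passed against sham or contralateral.

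**Figure D4:**
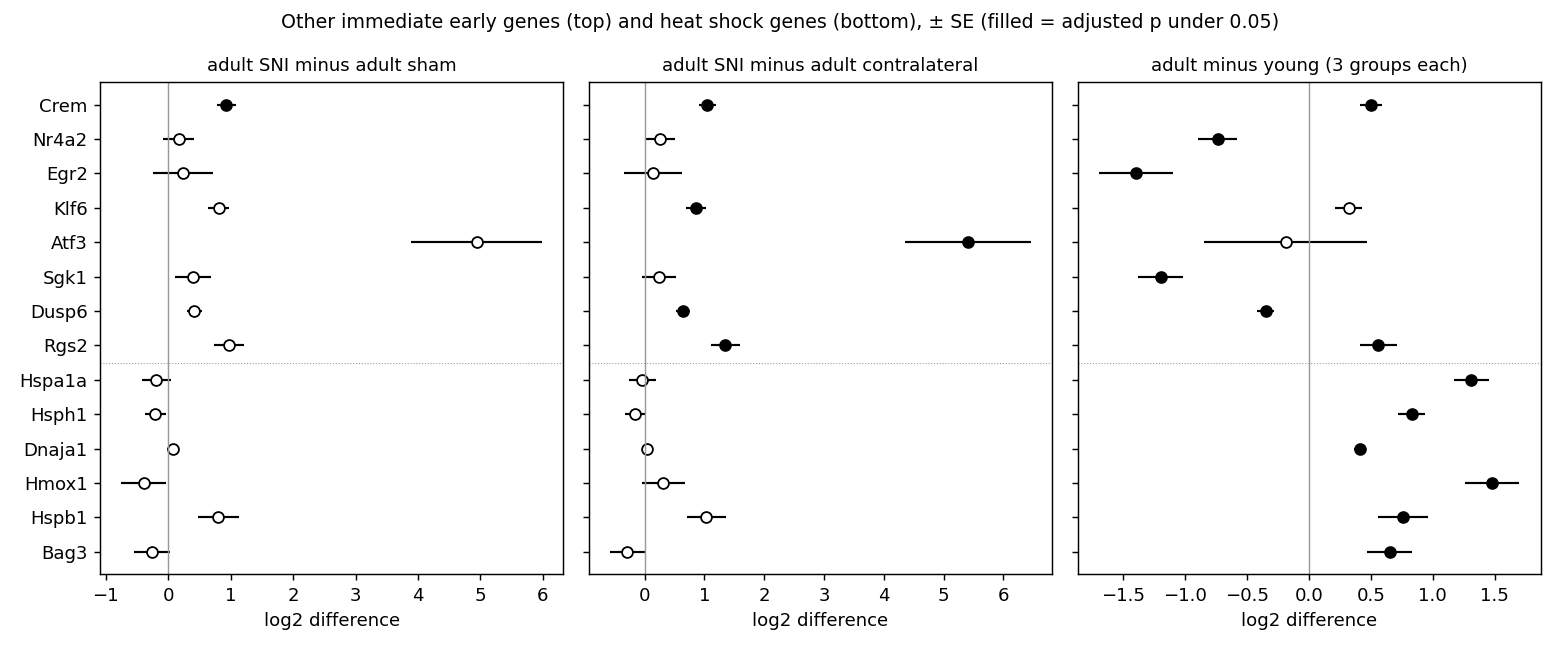
Log2 differences (horizontal axes) of the named genes of the other immediate early lists (top rows) and the heat shock list (bottom rows), with standard errors; filled points have an adjusted p under 0.05 in limma. Crem is filled in all 3 panels, and the 6 heat shock genes are filled only in adult minus young, at 0.41 to 1.48.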

How the data were processed

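Affymetrix rat genome arrays were normalised by the authors with GC-RMA, and the deposited log2 values, held to 2 decimals, were used unchanged. Of GC-RMA, a version was not given in the sources used here. Before deposit the authors had removed 2 arrays as outliers, which were not analysed here. Arrays give no read depth, and their number limits the precision.

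The 31042 probe sets that remained after 57 controls were left out were fitted with limma 3.58.1 (R 4.3.3), with 6 group means over 16 arrays and empirical Bayes variances. Adjusted p are Benjamini-Hochberg values over all probe sets within a comparison, with a threshold of 0.05. A gene was represented by its probe set of highest mean. Of the probe sets, 20826 had 1 gene symbol, 436 several and 9780 none. Correlations used 100000 permutations (Python 3.11.15, scipy 1.17.1, numpy 2.4.6, pandas 2.3.3, matplotlib 3.10.9). The code of the fit was run on simulated arrays with independent normal noise. These hold no correlation within pairs, so they do not bear on how the calls depend on the pairs.

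All member probe sets are named, and of each related list up to 6 genes that passed in any comparison. Members and lists were chosen with earlier results of these data known. Replicate numbers were checked as pairs. Deviations from group means of same-numbered adult SNI and contralateral arrays correlated at 0.449, 0.445 and 0.362, which was taken as pairing, and the block was fitted as an alternative. This fixed block also joined same-numbered adult sham arrays and same-numbered young arrays. Their correlations were lower, -0.041 to 0.2 for adult sham with adult SNI or contralateral arrays and -0.508 to 0.151 among young arrays. After seeing the data, the adult SNI and contralateral pairs were also fitted as a random block (duplicateCorrelation, consensus correlation 0.606), with every other array a block of its own. The other alternatives were separate fits of each age, a variance prior with an intensity trend, a robust variance prior, a filter at log2 4 in 2 arrays (18540 kept), array weights, quantile normalization and leaving out each array.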

Additional observations from a re-analysis of the deposited data

How the results depend on the processing

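The counts of members called stayed as reported in every comparison under an intensity trend, a robust prior, the filter on low values, array weights and quantile normalization. They also stayed so, where these could be fitted, with each age fitted on its own and with the fixed replicate block. Fits of each age on its own give only the comparisons within an age. The block left 0 members called in each comparison within an age and in both differences in response. As a fixed term it could not be fitted for the contrasts between ages, since the numbers lie within an age. With the adult pairs as a random replicate block, chosen after seeing the data, 1 member (Junb) passed in adult SNI against contralateral and 2 between ages. Leaving out 1 array moved the count between adult and young over 3 groups to between 1 and 3, while 1851 to 6034 of all probe sets passed. It moved the counts for young SNI against young sham and for adult SNI against young SNI to between 0 and 1, and without young SNI replicate 1 all probe sets that passed there were 3405 and 5297. Of the related genes, Dusp6 (adjusted p = 0.0992) and Rgs2 (0.0655) lost their calls in adult SNI against contralateral with each age fitted on its own. Between ages Rgs2 (0.0553) and Hspb1 (0.0706) lost theirs with array weights and Crtc1 (0.0599) with an intensity trend.

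Differences near 0 changed sign without reaching the threshold. Ier2 in adult SNI against sham was -0.17 with array weights, Dusp1 in young SNI against sham -0.05 with the replicate block, and the correlation of Fos with Dusp1 -0.16 with the mean of all probe sets of a gene. Leaving out 1 array gave Fos -0.37 to 2.13, Junb -0.08 to 0.26 and Dusp1 -0.07 to 0.36 in young SNI against sham, Dusp1 -0.05 to 0.38 against young contralateral, Nr4a1 -0.17 to 0.24 and Ier2 -0.27 to 0.55 in adult SNI against sham, and Egr1 -0.06 to 0.26 between ages. The correlation of Fos with Fosb ran between -0.57 and 0.25 and with Arc between -0.51 and 0.34. The causes were not tested. Signal near background leaves Fosb, Arc and 1 Fos probe set unreadable.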
